A study of Mus musculus with 6 samples.

Results

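The 57 genes described here encode the machinery that attaches chromosomes to the spindle and times their separation: the anaphase-promoting complex or cyclosome (APC/C) and its coactivators, the spindle assembly checkpoint, the Aurora kinases with the chromosomal passenger complex, the kinetochore, and the separase and securin pair. They were chosen by symbol (every listed *Anapc* gene with a number, every listed *Cenp* gene with 1 letter, and 27 genes by name) among the 17577 genes of the deposited tables. No value entered this rule, but earlier results of these data were known when it was chosen. Germinal vesicle (GV) oocytes, which are arrested in prophase of meiosis I, came from 12-week-old C57BL/6 J females primed with pregnant mare serum gonadotropin, and a modified Smart-seq2 protocol made cDNA from a single oocyte with an oligo-dT primer, template switching and PCR amplification. There were 3 libraries from Bnc1tr/tr mice, homozygous for a small frameshift deletion in exon 4 of *Bnc1* that leads to a premature stop codon, and 3 from wild-type (WT) mice. The allele is carried by every cell of the body, so the values cannot separate an effect within the oocyte from one of the somatic cells around it. Values are FPKM, the fragments of a gene divided by its length in kilobases and by the mapped fragments of the library in M (mega), which are relative to the other transcripts of a library and give no amount of RNA per oocyte.

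The kinetochore is built on centromeric chromatin that holds the histone variant CENP-A. An inner layer of CENP proteins binds this chromatin, and the NDC80 complex in the outer layer grips microtubules. Unattached kinetochores produce the checkpoint signal that restrains CDC20, and when all are attached the APC/C marks securin and cyclin B for degradation, which frees separase to cut cohesin. A fully grown GV oocyte transcribes little and stores such transcripts for the meiotic divisions, and APC/C with FZR1 (CDH1) helps to hold the prophase arrest.

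*Bnc1* itself was lower in Bnc1tr/tr libraries, at 9.04, 6.51 and 5.83 FPKM against 13.2, 12.5 and 16.2 FPKM in WT (log2 fold change -0.89, SE 0.20, adjusted p = 0.0090). Column totals were 657550 to 704568 FPKM in Bnc1tr/tr and 671768 to 724550 in WT, and 10682 to 11035 against 9518 to 9748 genes reached 1 FPKM. Fragment totals were not used here, and the steps of low FPKM values placed 5 of the libraries at an estimated 12.5 to 17.1 M fragments, while WT replicate 3 gave no clear step. All 8 oocyte markers were present in each library and summed to 7959 to 8303 FPKM in Bnc1tr/tr and 6976 to 10632 FPKM in WT. *Zp2* (313 to 424 against 491 to 784 FPKM), *Zp3* (1758 to 2046 against 2142 to 3719 FPKM) and *Nlrp5* (183 to 189 against 236 to 318 FPKM) lay below WT without overlap. *Bmp15* lay above WT without overlap (1093 to 1391 against 718 to 1065 FPKM), and the remaining oocyte markers overlapped between the groups. Markers of granulosa and cumulus cells summed to 43.3 to 60.5 FPKM in Bnc1tr/tr and 22.8 to 39.8 FPKM in WT, 9 of 10 being listed. Of these, *Foxl2* was at 0 in 5 libraries and at 0.030 FPKM in WT replicate 1. *Cyp19a1* was at 27.5 to 44.4 against 17.4 to 28.98 FPKM and *Fshr* at 4.54 to 5.83 against 0 to 0.74 FPKM. *Nr5a2* (4.1 to 7.09 against 3.49 to 3.85 FPKM) and *Kitl* (1.94 to 3.1 against 1.12 to 1.18 FPKM) lay above WT without overlap. Others went the other way: *Inha* reached 1.81 FPKM in Bnc1tr/tr and 6.78 FPKM in WT, *Hsd17b1* 0.38 and 1.43 FPKM and *Fst* 0.16 and 0.63 FPKM. Their groups overlapped, as did those of *Inhba* (0.5 to 0.84 against 0.18 to 0.61 FPKM). Theca and stroma markers (5 of 6 listed) summed to 6.33 to 8.15 against 0.78 to 2.54 FPKM with *Col1a1* at most at 0.010 FPKM and *Cyp11a1* at 5.29 to 6.08 against 0.60 to 2.17 FPKM. The endothelial markers summed to 5.38 to 8.10 against 10.1 to 11.7 FPKM with *Cdh5* at most at 0.020 FPKM. Of these, *Pecam1* lay below WT without overlap (3.16 to 5.13 against 7.55 to 9.92 FPKM). *Kdr* lay above WT without overlap (0.53 to 1.54 against 0.07 to 0.12 FPKM), and *Tek* overlapped (1.43 to 1.69 against 1.55 to 2.47 FPKM). Immune markers summed to 60.9 to 124 against 66.2 to 97.1 FPKM with *Ptprc* at most at 0.30 FPKM. *C1qb* (53.1 to 70.65 against 64.8 to 95.3 FPKM) and *Cd68* (0.96 to 12.2 against 1.39 to 2.94 FPKM) overlapped between the groups. *Lyz2* was at 5.81, 47.97 and 0 FPKM in Bnc1tr/tr and 0 in WT. *C1qa* (0.61 to 1.66 FPKM) and *Cd3e* (0.24 to 0.67 FPKM) were above 0 in each Bnc1tr/tr library and at 0 in WT. The part of other cells' RNA in the results below was not tested.

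The promoters of 5 members are shown, because these genes carry the comparison: those with the largest rises (*Cenpt*, *Cenpi*) and falls (*Cenpq*, *Ndc80*) among members whose call held in every fit that tested them, and *Aurkc*, the most abundant called member. Each runs 5′ to 3′ from 250 bases before to 50 bases after the first listed RefSeq start site of the gene on GRCm38.p6. Capitals mark TTTGAA, the core of the CHR element found in many cell cycle promoters, and CCAAT, the box bound by NF-Y, each searched on both strands (the reverse forms read TTCAAA and ATTGG).
Cenpt, chr8:105851959-105852258, minus strand: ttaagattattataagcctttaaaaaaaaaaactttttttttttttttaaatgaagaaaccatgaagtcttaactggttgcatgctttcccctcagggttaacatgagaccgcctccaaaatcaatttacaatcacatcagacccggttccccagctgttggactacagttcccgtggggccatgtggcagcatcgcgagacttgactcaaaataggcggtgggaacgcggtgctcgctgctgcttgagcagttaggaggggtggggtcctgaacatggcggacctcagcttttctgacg
Cenpi, chrX:134307834-134308133, plus strand: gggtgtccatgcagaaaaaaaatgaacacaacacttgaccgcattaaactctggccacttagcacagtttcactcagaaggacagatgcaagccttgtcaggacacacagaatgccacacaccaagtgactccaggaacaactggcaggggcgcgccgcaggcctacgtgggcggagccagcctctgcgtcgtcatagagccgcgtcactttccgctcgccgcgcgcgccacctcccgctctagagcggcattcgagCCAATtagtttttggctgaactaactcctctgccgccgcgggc
Aurkc, chr7:6995135-6995434, plus strand: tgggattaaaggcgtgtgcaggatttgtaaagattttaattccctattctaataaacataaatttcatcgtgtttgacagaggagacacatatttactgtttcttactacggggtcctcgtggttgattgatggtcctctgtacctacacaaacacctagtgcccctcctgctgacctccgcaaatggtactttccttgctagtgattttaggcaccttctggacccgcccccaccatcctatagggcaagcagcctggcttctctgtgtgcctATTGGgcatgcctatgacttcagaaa
Cenpq, chr17:40934525-40934824, minus strand: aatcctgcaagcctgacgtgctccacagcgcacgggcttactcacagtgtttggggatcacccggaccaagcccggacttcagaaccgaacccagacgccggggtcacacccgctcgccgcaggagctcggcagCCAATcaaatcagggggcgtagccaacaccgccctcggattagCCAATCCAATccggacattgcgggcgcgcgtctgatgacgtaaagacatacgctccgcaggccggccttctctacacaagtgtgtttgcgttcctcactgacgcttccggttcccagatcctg
Ndc80, chr17:71526808-71527107, minus strand: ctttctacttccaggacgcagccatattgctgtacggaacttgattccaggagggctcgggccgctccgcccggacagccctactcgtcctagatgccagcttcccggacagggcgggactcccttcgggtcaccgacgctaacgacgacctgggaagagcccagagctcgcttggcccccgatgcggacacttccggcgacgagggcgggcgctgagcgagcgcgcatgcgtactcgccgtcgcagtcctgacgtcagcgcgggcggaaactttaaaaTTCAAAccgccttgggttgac

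Of the 57 members, 52 had a promoter in the RefSeq table. Where a gene had several listed start sites only the first was searched, which left out 5826 promoters over all genes. TTTGAA was found in 18 of the 52 (34.6%), against 4893 of all 27025 promoters of that length (18.1%), and CCAAT in 29 (55.8%) against 10248 (37.9%). By the test described below, among members that rose in Bnc1tr/tr 3 of 8 promoters held TTTGAA and 6 held CCAAT, among those that fell 1 of 7 and 3, and among those not called 14 of 36 and 20. *Cenpt*, the member with the largest rise, held neither at the start site searched, *Cenpq* held CCAAT 3 times, and *Ndc80* held 1 TTTGAA. The start site searched for *Cenpt* lies inside the span of the gene (chr8:105844669-105855086), and its other starts were not searched. A match describes these letters only and is not a binding site.

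All 57 members were above 0 in all 6 libraries. In WT oocytes 23 averaged 100 FPKM or more, 51 averaged 10 FPKM or more, and 20 ranked among the 1000 most abundant genes. Together they took 2.19%, 2.12% and 2.51% of the FPKM total in Bnc1tr/tr and 2.03%, 2.09% and 2.43% in WT, ranges that overlap. *Pttg1*, which encodes securin, was by far the most abundant member, at 6478, 6311 and 8776 FPKM in Bnc1tr/tr and 5013, 5563 and 8059 FPKM in WT, and in Bnc1tr/tr replicate 3 it was the most abundant gene of the library. Its target *Espl1*, which encodes separase, lay at the other end of the scale with a WT mean of 4.06 ± 0.351 FPKM (SD, n = 3).

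**Figure D1:**
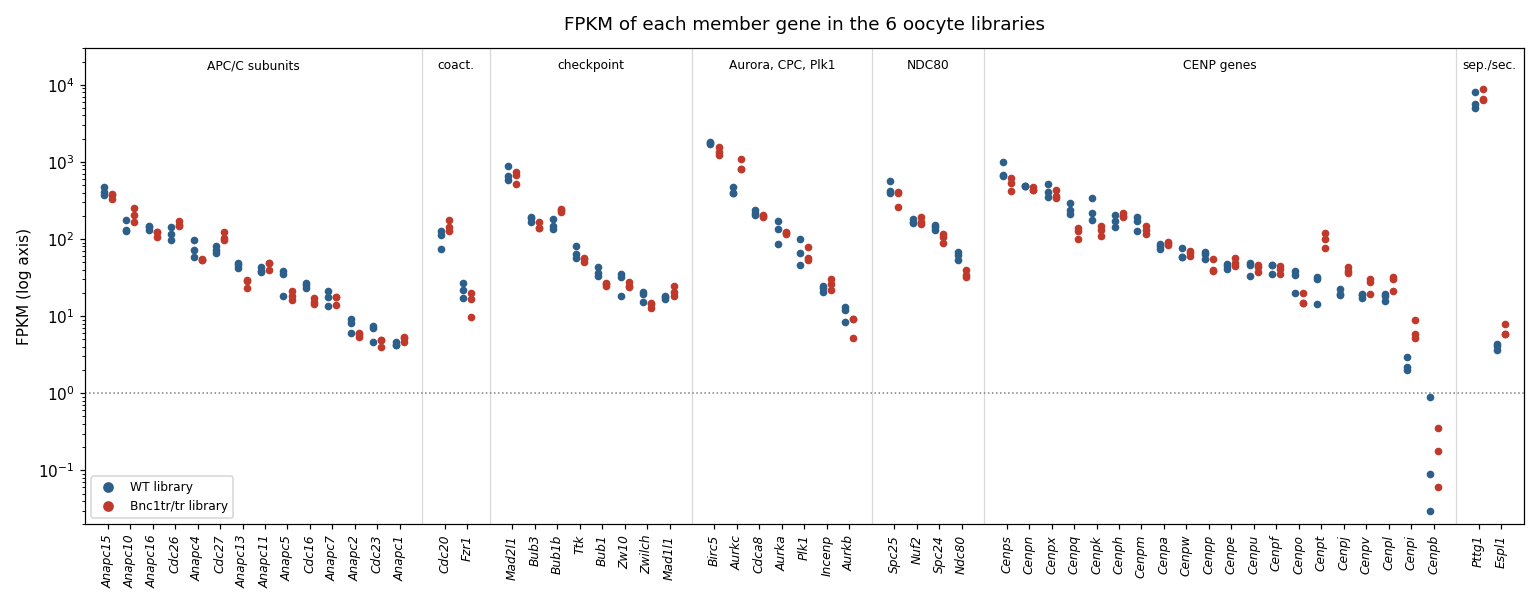
FPKM of each member gene in each library on a log10 axis, ordered by role and by WT mean, with WT and Bnc1tr/tr libraries in separate colours. Levels within a role spread far more widely than the groups differ, as in the CENP genes, which run from *Cenpi* at a WT mean of 2.38 FPKM to *Cenps* at 774 FPKM, with *Cenpb* under 1 FPKM.

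Subunits of the same complex were far from equal in FPKM, a level per length. The APC/C ran over 96.3-fold in WT means, from *Anapc1*, its large scaffold, at 4.36 FPKM to *Anapc15*, which promotes release of the checkpoint complex, at 419 FPKM. The checkpoint genes ran over 40.3-fold, from *Mad1l1* at 17.5 FPKM to *Mad2l1* at 705 FPKM, and the NDC80 complex, whose 4 subunits act together, over 7.53-fold, from *Ndc80* at 60.8 FPKM to *Spc25* at 457 FPKM. Longer transcripts tended to have lower levels: over 56 tested members Spearman's rho between the WT mean and the length of the longest coding transcript was -0.404, across genes of the same libraries and thus as a description only.

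Groups were compared with limma on log2(FPKM + 1) for the 10560 genes that averaged 1 FPKM or more. A gene was called changed where its adjusted p (Benjamini-Hochberg) was below 0.05 and its log2 fold change was above 0.5 in size. *Cenpb*, which encodes a DNA-binding centromere protein, was not tested (0.030 to 0.88 FPKM). Of the 56 tested members 8 were called higher and 7 lower in Bnc1tr/tr, and 41 were not called. Over all tested genes 31.8% were called, 24.1% higher and 7.68% lower; among members the shares were 26.8%, 14.3% and 12.5%. Among the 5283 genes that averaged 10 FPKM or more, 27.5% were called, 18.1% higher and 9.33% lower, against 6 higher and 7 lower of 50 members. The median log2 fold change was -0.12 over members and 0.15 over all tested genes, and members ran from -1.01 to 1.95. Groups did not overlap for 29 members, 12 above and 17 below, where 46.8% of all tested genes did not overlap, 32.7% above and 14.1% below. At 10 FPKM or more this held for 9 members above and 16 below of 50, and for 45.3% of all such genes, 27.1% above and 18.2% below.

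The split between directions depended on the scaling between libraries. As deposited it was 8 higher and 7 lower, after upper-quartile scaling 4 and 22, after median-ratio scaling 4 and 19, and after quantile normalization 5 and 14. Over all tested genes the median stood at 0.15 as deposited and at -0.09, -0.05 and -0.10 under these scalings. Each call gained under them was a lower one. The 12 gained under both upper-quartile and median-ratio scaling were *Anapc2*, *Anapc4*, *Anapc5*, *Cdc23*, *Bub3*, *Ttk*, *Zwilch*, *Aurkb*, *Birc5*, *Spc24*, *Cenpp* and *Cenps*. Exons of *Cdc23* and *Cenpp* are overlapped in part by genes on the opposite strand, with values given below. Relative to the median of all genes as deposited, members had a median of -0.27. The called members that fell kept their call under each of these 3 scalings, while of those that rose *Cdc27*, *Cenpl* and *Espl1* lost theirs under all 3 and *Bub1b* under upper-quartile and median-ratio scaling.

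**Figure D2:**
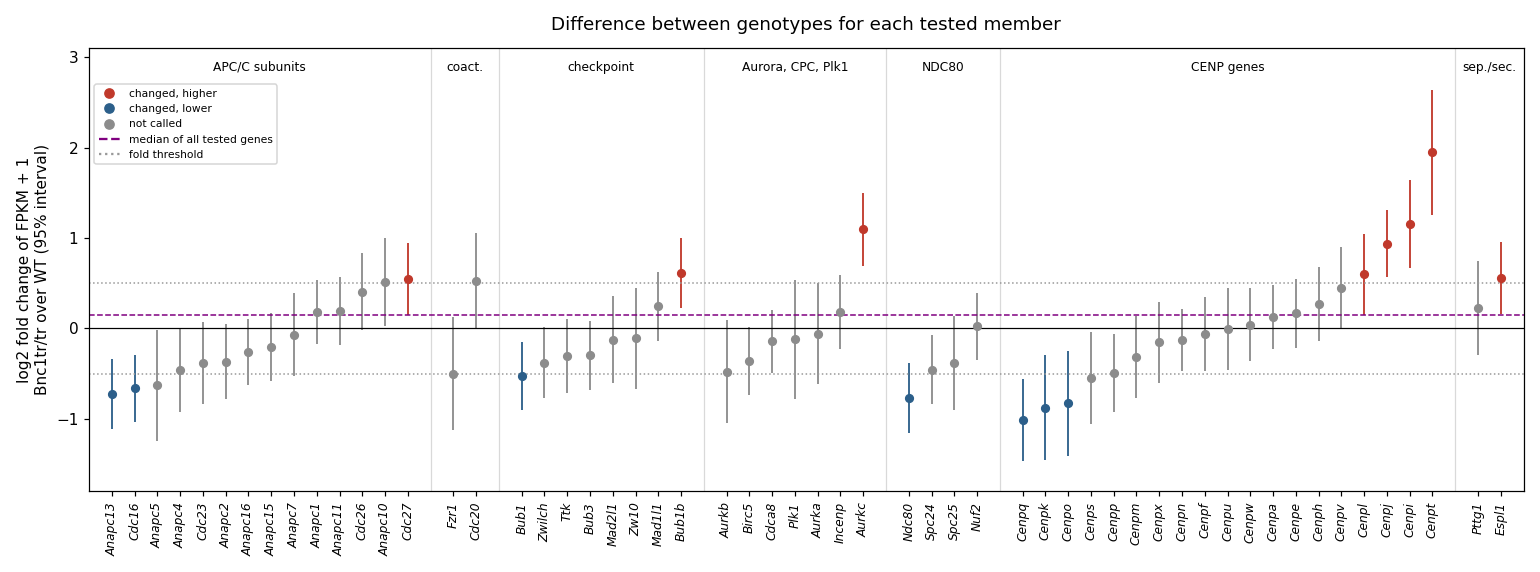
Log2 fold change of each tested member (Bnc1tr/tr minus WT, on the log2(FPKM + 1) scale, 95% confidence interval of limma), grouped by role, with called members in colour and the median of all tested genes as a dashed line. *Cenpt* stands highest at 1.95 and *Cenpq* lowest at -1.01, and 41 of 56 members are not called.

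The CENP genes, most of which build the inner kinetochore, held both the largest rise and the largest fall among the members as deposited. Of 19 tested, 4 rose (21.1%, against 24.1% of all tested genes), 3 fell (15.8%, against 7.68%) and 12 were not called, with a median log2 fold change of -0.01. The 36.8% called lay near the 31.8% of all tested genes, and *Cenpj* among the rises is no inner kinetochore gene. *Cenpt* (chr8:105844669-105855086), whose protein links centromeric chromatin to the NDC80 complex, had 98.6, 119 and 77.5 FPKM in Bnc1tr/tr and 32.4, 30.7 and 14.6 FPKM in WT. Every Bnc1tr/tr library was thus above every WT library, and the means of 98.5 ± 20.99 and 25.9 ± 9.84 FPKM (SD, n = 3 each) stood 3.81-fold apart (log2 fold change 1.95, SE 0.31, adjusted p = 0.0015). Its partners in the CENP-T-W-S-X subcomplex did not rise with it: *Cenpw* had 65.7 ± 4.35 against 64.2 ± 10.9 FPKM (log2 fold change 0.04, adjusted p = 0.88), *Cenpx* 379 ± 46.3 against 426 ± 88.0 FPKM (-0.15, adjusted p = 0.60), and *Cenps* 525 ± 102 against 774 ± 186 FPKM. For *Cenps* the libraries gave 420.1, 623 and 532 FPKM in Bnc1tr/tr and 656, 678 and 988 FPKM in WT, without overlap, and the difference missed the threshold (log2 fold change -0.55, adjusted p = 0.093) but passed it after upper-quartile (adjusted p = 0.033) and median-ratio scaling (adjusted p = 0.043).

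In the CENP-H-I-K-M subcomplex 1 gene rose and 1 fell. *Cenpi* (chrX:134308084-134363104) was low and rose, with 5.83, 8.78 and 5.25 FPKM in Bnc1tr/tr and 2.95, 2.2 and 2.0 FPKM in WT (log2 fold change 1.15, SE 0.21, adjusted p = 0.0036). *Cenpk* (chr13:104228611-104249622) fell, with 108, 131 and 148 FPKM against 177, 215 and 343 FPKM, the WT group being spread by replicate 3 (log2 fold change -0.88, SE 0.26, adjusted p = 0.029). The groups of both genes did not overlap. *Cenph* (204 ± 12.0 against 171 ± 30.3 FPKM, log2 fold change 0.27, adjusted p = 0.30) and *Cenpm* (131 ± 15.5 against 165 ± 32.4 FPKM, -0.32, adjusted p = 0.26) were not called. On the level scale, then, *Cenpi* was scarce beside its partners in both genotypes, even after its rise.

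In the CENP-O-P-Q-U subcomplex, which adds to the microtubule attachment of the inner layer, the called members fell. *Cenpq* (chr17:40920809-40934574) had 100.1, 126 and 138 FPKM in Bnc1tr/tr and 209, 236 and 292 FPKM in WT, so that the highest Bnc1tr/tr library lay under the lowest WT library, and the mean fell to 0.493 of WT (log2 fold change -1.01, SE 0.20, adjusted p = 0.0047). *Cenpo* (chr12:4195398-4234255) had 20.2, 14.7 and 14.9 FPKM against 38.8, 34.2 and 20.2 FPKM, and WT replicate 3 lay within the range of Bnc1tr/tr (log2 fold change -0.83, SE 0.26, adjusted p = 0.037). The count of *Cenpo* is uncertain. Here 22.5% of its exonic bases are overlapped by *Adcy3* and *Ptrhd1* on the opposite strand and the strand of counting was not stated. *Adcy3* itself had 0.63 to 1.48 FPKM in Bnc1tr/tr and at most 0.040 FPKM in WT. *Cenpp* had 44.4 ± 9.12 against 62.3 ± 6.36 FPKM (log2 fold change -0.49, adjusted p = 0.080), and *Cenpu* 42.1 ± 4.69 against 42.7 ± 8.59 FPKM (-0.01, adjusted p = 0.98). Their counts are uncertain too. For *Cenpp* 12.6% of the exonic bases are overlapped on the opposite strand by *Ippk* and *Aspn*. *Ippk* itself had 37.5 to 51.4 FPKM in Bnc1tr/tr and 39.5 to 62.1 FPKM in WT. For *Cenpu* 26.7% are overlapped by *Primpol*, at 1.03 to 1.14 against 1.51 to 3.24 FPKM.

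Among the CENP-A reader genes, *Cenpl* (chr1:161070767-161086724) rose, with 32.2, 30.1 and 21.2 FPKM in Bnc1tr/tr and 19.5, 15.9 and 18.1 FPKM in WT (log2 fold change 0.60, SE 0.20, adjusted p = 0.048), a call close to the threshold. Its partner *Cenpn* was more abundant in every library and was not called (447 ± 24.1 against 487 ± 4.18 FPKM, log2 fold change -0.12, adjusted p = 0.57). *Cenpa* itself had 87.9 ± 4.34 against 80.8 ± 6.14 FPKM (0.12, adjusted p = 0.59). *Cenpj* (chr14:56526761-56575489), whose symbol matched although its protein builds centrioles rather than kinetochores, rose from 22.6, 19.1 and 18.8 FPKM in WT to 36.5, 38.9 and 42.9 FPKM in Bnc1tr/tr, the means being 1.96-fold apart (log2 fold change 0.94, SE 0.16, adjusted p = 0.0026). The outer corona genes *Cenpe*, a kinesin, and *Cenpf* were not called (log2 fold change 0.17 and -0.06), nor was *Cenpv* (0.45, adjusted p = 0.12).

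Of the NDC80 complex, the microtubule-binding unit of the outer kinetochore, *Ndc80* passed limma's test, and differences between subunits were not tested. *Ndc80* (chr17:71496100-71526857) had 32.6, 33.6 and 39.1 FPKM in Bnc1tr/tr and 67.4, 61.9 and 52.9 FPKM in WT, without overlap, and its mean fell to 0.578 of WT (log2 fold change -0.77, SE 0.17, adjusted p = 0.0088). It was already the least abundant of the 4 subunits in WT. Of the 31-base words of *Ndc80* transcripts, 10.6% also occur in other genes. *Nuf2*, its dimer partner, had 167, 158 and 193 FPKM against 183, 165 and 159.6 FPKM (log2 fold change 0.02, adjusted p = 0.93), and its value turned to -0.25 and -0.20 after upper-quartile and median-ratio scaling without passing the threshold. *Spc24* (103 ± 13.4 against 142 ± 9.29 FPKM, log2 fold change -0.46, adjusted p = 0.070) and *Spc25* (353 ± 82.1 against 457 ± 88.8 FPKM, -0.39, adjusted p = 0.23), which anchor the complex to the inner layer, were not called, although *Spc24* passed after upper-quartile (adjusted p = 0.016) and median-ratio scaling (0.023).

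The checkpoint genes held 1 rise and 1 fall among 8 tested, in 2 related genes. Each direction made up 12.5%, against 24.1% higher and 7.68% lower over all tested genes. *Bub1b*, which encodes BubR1, the checkpoint component that binds CDC20, had 239.8, 222 and 243 FPKM in Bnc1tr/tr and 181, 146 and 137 FPKM in WT (log2 fold change 0.61, SE 0.17, adjusted p = 0.024). *Bub1*, the kinase that recruits the checkpoint and shugoshin to kinetochores, had 27.1, 24.3 and 26.0 FPKM against 43.0, 36.7 and 33.3 FPKM (log2 fold change -0.52, SE 0.17, adjusted p = 0.040). Groups did not overlap for either gene, where 46.8% of all tested genes did not overlap. *Mad2l1*, the most abundant checkpoint gene, had 523, 672 and 735 FPKM against 580.2, 655 and 879 FPKM (log2 fold change -0.12, 95% confidence interval -0.61 to 0.36, adjusted p = 0.70), and *Bub3* 141, 167 and 138 FPKM against 195, 188 and 165 FPKM (-0.30, adjusted p = 0.20). The kinase gene *Ttk* (-0.31), *Zwilch* (-0.38), *Zw10* (-0.11) and *Mad1l1* (0.25) were not called.

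*Aurkc* was the most abundant member called. Aurora C is enriched in germ cells and works with the chromosomal passenger complex in meiosis to correct wrong attachments. *Aurkc* (chr7:6995347-7003091) had 1077, 816 and 819.8 FPKM in Bnc1tr/tr and 467, 395 and 400.2 FPKM in WT, so that each mutant library exceeded every WT library, and the means of 904 ± 149.5 and 421 ± 39.9 FPKM stood 2.15-fold apart (log2 fold change 1.09, SE 0.18, adjusted p = 0.0019). The value is uncertain in its source, since 67.1% of the 31-base words of its transcripts also occur in other genes, mostly pseudogenes. Of these *Gm7207* was listed, with 4.01 to 5.62 FPKM in Bnc1tr/tr and 1.63 to 2.81 FPKM in WT. The other kinase genes did not pass the test as deposited: *Aurka*, the spindle pole kinase, had 119, 124 and 116 FPKM against 171, 134 and 85.1 FPKM (log2 fold change -0.06, 95% confidence interval -0.62 to 0.50, adjusted p = 0.88), and *Aurkb* had 9.26, 9.19 and 5.22 FPKM against 12.1, 13.2 and 8.43 FPKM (-0.48, adjusted p = 0.18). *Aurkb* passed as lower after upper-quartile (adjusted p = 0.033), median-ratio (0.047) and quantile scaling (0.025). Of the passenger subunits, *Birc5* (survivin) lay at 1234, 1571 and 1347 FPKM against 1765, 1729 and 1813 FPKM, below WT in every library, and missed the threshold (log2 fold change -0.36, adjusted p = 0.13; 0.033 after median-ratio scaling). *Cdca8* (borealin, -0.14), *Incenp* (0.18) and *Plk1* (-0.12) were not called.

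Among the 14 APC/C subunits 1 rose (7.14%, against 24.1% of all tested genes), 2 fell (14.3%, against 7.68%) and 11 were not called. The median log2 fold change was -0.23, against 0.15 over all tested genes. *Cdc27*, which docks the coactivators, had 96.1, 103 and 122 FPKM in Bnc1tr/tr and 81.6, 71.7 and 65.4 FPKM in WT (log2 fold change 0.55, SE 0.17, adjusted p = 0.040). *Cdc16* (chr8:13757649-13781951) had 17.3, 15.1 and 14.4 FPKM against 27.1, 25.5 and 23.0 FPKM (-0.66, SE 0.16, adjusted p = 0.014). *Anapc13* (chr9:102626296-102634244), a small subunit, had 23.1, 28.3 and 29.8 FPKM against 41.5, 45.8 and 48.6 FPKM (-0.73, SE 0.17, adjusted p = 0.011), while 10.1% of its exonic bases are overlapped by *Cep63* on the opposite strand, itself at 8.02 to 10.2 FPKM in all libraries. None of the 3 overlapped between the groups, where 46.8% of all tested genes did not overlap. *Cdc23*, *Anapc7*, *Cdc26* and *Anapc16* were not called (log2 fold change -0.38, -0.07, 0.41 and -0.26). *Anapc4* (-0.46, adjusted p = 0.12), *Anapc5* (-0.63, adjusted p = 0.11) and *Anapc1* (0.18, adjusted p = 0.41) were not called either. After upper-quartile, median-ratio and quantile scaling alike, *Anapc4*, *Anapc5* and *Cdc23* passed as lower. *Anapc16* did so after upper-quartile scaling (adjusted p = 0.034). The count of *Cdc23* (3.97 to 4.85 against 4.61 to 7.35 FPKM) is uncertain. Here 13.4% of its exonic bases are overlapped on the opposite strand by *Kif20a*, itself at 16.6 to 21.6 against 15.7 to 28.0 FPKM.

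The catalytic and substrate-binding subunits did not pass the test as deposited. The cullin gene *Anapc2* had 5.74 ± 0.30 against 7.79 ± 1.59 FPKM (log2 fold change -0.37, adjusted p = 0.16), the RING gene *Anapc11* 45.7 ± 4.77 against 39.9 ± 3.41 FPKM (0.19, adjusted p = 0.42), and *Anapc10*, which helps to bind substrates, 206, 167 and 254 FPKM against 132, 127 and 178 FPKM (0.51, adjusted p = 0.10). *Anapc2* passed as lower after upper-quartile (-0.61, adjusted p = 0.021), median-ratio (-0.56, 0.032) and quantile scaling (-0.70, 0.011). *Anapc15* had 332, 386 and 369 FPKM against 377, 407 and 473 FPKM (-0.21, adjusted p = 0.38). Of its exonic bases 38.4% are overlapped by *Tomt* on the opposite strand, itself at 1.81 to 3.17 against 0.89 to 1.86 FPKM. The summed FPKM of the 14 subunits was 1073, 1125 and 1234 in Bnc1tr/tr and 1117, 1122 and 1209 in WT.

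Neither coactivator was called as deposited. *Cdc20*, the checkpoint target that opens anaphase, had 179, 126 and 142 FPKM in Bnc1tr/tr and 126, 112 and 74.9 FPKM in WT (log2 fold change 0.53, SE 0.23, adjusted p = 0.12). *Fzr1* had 20.2, 16.9 and 9.77 FPKM against 27.1, 21.7 and 17.1 FPKM (-0.50, SE 0.27, adjusted p = 0.20), and passed as lower after upper-quartile scaling (-0.76, adjusted p = 0.038). Both groups overlapped for each gene.

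At the end of the pathway, *Espl1* rose, with 7.81, 5.88 and 5.79 FPKM in Bnc1tr/tr and 4.37, 3.68 and 4.14 FPKM in WT (log2 fold change 0.56, SE 0.17, adjusted p = 0.037), without overlap. *Pttg1* was not called (7188 ± 1377 against 6212 ± 1623 FPKM, log2 fold change 0.22, 95% confidence interval -0.29 to 0.74, adjusted p = 0.49).

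Of the 15 called members, 7 kept their call in every fit that tested them, over 14 alternatives that changed the pseudocount, the filter, the scaling, the variance model, the replicate block or left out 1 library. These were *Cenpt* (log2 fold change 1.59 to 2.14), *Cenpi* (0.77 to 1.42, in 13 fits, being under a filter of 5 FPKM), *Aurkc* (0.82 to 1.17), *Cenpj* (0.67 to 1.02), *Cenpq* (-1.29 to -0.88), *Ndc80* (-1.04 to -0.69) and *Anapc13* (-0.99 to -0.62). How many of all 3358 called genes held their call in this way was not counted, so the 7 of 15 has no share beside it.

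**Figure D3:**
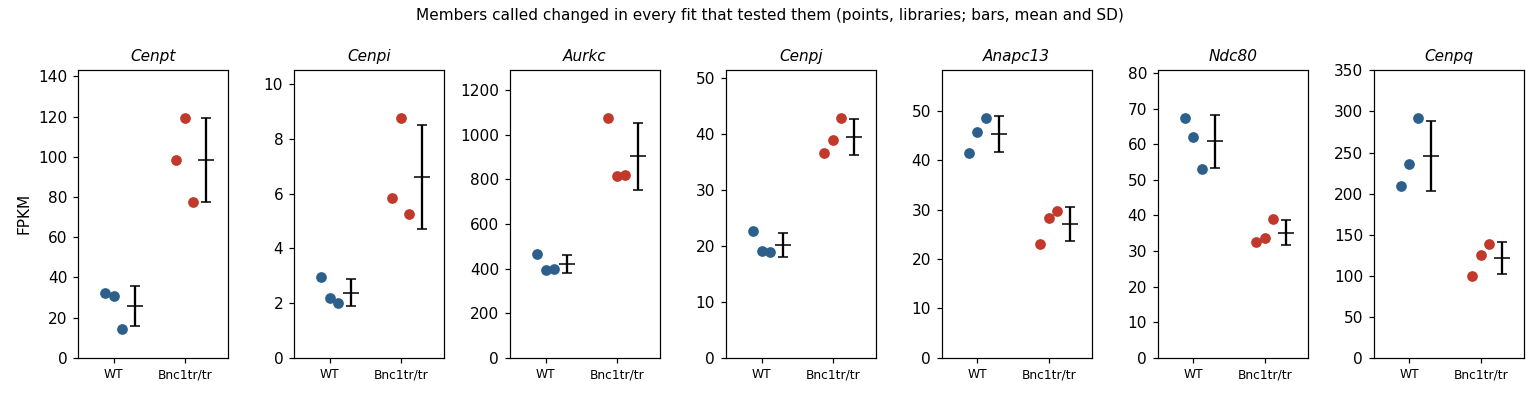
FPKM in each library for the 7 members called changed in every fit that tested them, with the mean and SD of each group (n = 3) and axes that start at 0. In *Cenpt*, *Cenpi*, *Aurkc* and *Cenpj* all Bnc1tr/tr points lie above the WT points, and in *Ndc80*, *Anapc13* and *Cenpq* all lie below.

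Each of the other 8 calls was lost in at least 2 of the fits that left out 1 library. *Cdc16* missed the threshold without Bnc1tr/tr replicate 3 or WT replicate 2 (adjusted p of 0.052 and 0.059). *Cenpk* missed it without Bnc1tr/tr replicate 1 or 2 or WT replicate 2 (adjusted p of 0.060 to 0.10), *Cenpo* without Bnc1tr/tr replicate 2 or 3 or WT replicate 1 or 2 (0.11 to 0.12), and *Bub1b* without any of the Bnc1tr/tr libraries or WT replicate 2 (0.051 to 0.096). *Bub1* (0.075 to 0.12) and *Espl1* (0.058 to 0.14) each missed it without any library other than WT replicate 3, *Cdc27* (0.056 to 0.13) without any other than WT replicate 1, and *Cenpl* (0.064 to 0.17) without any other than Bnc1tr/tr replicate 3. Their direction stayed the same in each of these fits. Without WT replicate 2, 7 members were called in all, and without WT replicate 3 there were 19, of which 13 were among the 15. The gained genes, all of the APC/C, went in both directions. *Anapc10* and *Cdc26* were gained as higher, and *Anapc2*, *Anapc4*, *Anapc5* and *Cdc23* as lower. The 19 calls were 8 higher and 11 lower. Over all tested genes this fit gave 3539 calls, against 3358 with all libraries. Of these, 2498 against 2547 were higher and 1041 against 811 were lower.

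A ratio of FPKM within a library is the same under any scaling by 1 factor per library, though not under quantile normalization. The log2 ratios of FPKM + 1 tested here move slightly with such a factor. With 3 against 3 libraries the exact two-sided permutation test cannot go below 0.10, so no ratio could pass 0.05. The ratio of *Cdc20* to *Fzr1* was 8.85, 7.46 and 14.5 in Bnc1tr/tr and 4.66, 5.15 and 4.37 in WT, without overlap, which is a difference of 1.03 in the log2 ratio of FPKM + 1 (exact permutation p = 0.10, 0.20 after adjustment over 6 ratios). *Aurkc* to *Aurkb* was 116, 88.8 and 157 against 38.5, 30.0 and 47.5 (difference 1.57, exact permutation p = 0.10, adjusted 0.20), and *Aurkc* to *Aurka* 9.05, 6.58 and 7.05 against 2.74, 2.96 and 4.70 (difference 1.15, with the same p-values). In every library the FPKM listed for *Aurkc* exceeded those of its relatives, with the doubt on its source given above. For *Cdc20*, 26.7% of the 31-base words likewise occur in other genes, chiefly *Gm7856*. The ratios of *Mad2l1* to *Cdc20* (difference -0.65, exact permutation p = 0.40), *Bub1b* to *Cdc20* (0.08, exact permutation p = 0.90) and *Pttg1* to *Espl1* (-0.33, exact permutation p = 0.40) overlapped between the groups. Leaving out 1 library moved the first from -0.93 (without WT replicate 1) to -0.26 (without WT replicate 3). It moved the second from -0.019 (without WT replicate 2) to 0.22, and the third from -0.55 (without Bnc1tr/tr replicate 3) to -0.14 (without WT replicate 3 or Bnc1tr/tr replicate 1).

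**Figure D4:**
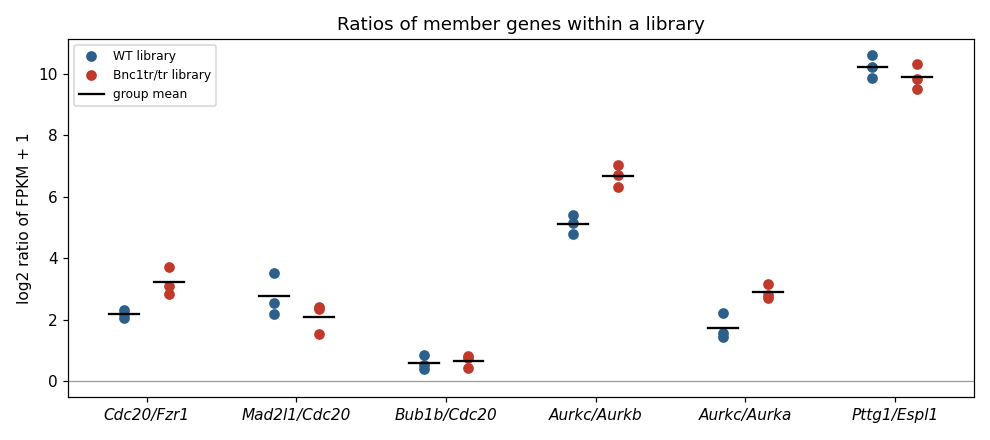
Log2 ratio of FPKM + 1 between 2 member genes in each library, with the group mean as a bar. Bnc1tr/tr and WT libraries do not overlap for *Cdc20*/*Fzr1*, *Aurkc*/*Aurkb* and *Aurkc*/*Aurka*, and overlap for the other 3 ratios.

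A list of 52 further genes of the pathway, not matched by the rule, was read in the same way: 49 were tested, 7 were called higher (14.3%) and 3 lower (6.12%), and the median log2 fold change was 0.05. Over all tested genes these shares were 24.1% and 7.68%. Of the 3 ubiquitin-conjugating enzymes listed as serving the APC/C, 1 fell, 1 rose and *Ube2d1* was not called (log2 fold change 0.29, adjusted p = 0.27). *Ube2c*, which starts the ubiquitin chain, had 200.4, 212 and 194 FPKM in Bnc1tr/tr and 410.2, 386 and 289.6 FPKM in WT (log2 fold change -0.82, adjusted p = 0.0088), with 22.8% of its exonic bases overlapped by *Tnnc2* on the opposite strand and 25.3% of its 31-base words found in other genes. *Ube2s*, which extends it, had 112, 76.4 and 118 FPKM against 55.2, 52.7 and 45.8 FPKM (0.96, adjusted p = 0.0073). *Fbxo43*, which encodes the APC/C inhibitor EMI2, rose (43.0 ± 1.93 against 27.2 ± 6.25 FPKM, log2 fold change 0.67, adjusted p = 0.031), a call lost after upper-quartile (adjusted p = 0.11) and median-ratio scaling (0.080) and without any library other than WT replicate 1 (0.054 to 0.087). The inhibitor gene *Fbxo5* was not called (119 ± 10.6 against 170 ± 49.6 FPKM, log2 fold change -0.48, adjusted p = 0.14). It passed as lower after upper-quartile (-0.75, adjusted p = 0.018) and median-ratio scaling (-0.70, adjusted p = 0.028).

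At the kinetochore, *Ska3*, a subunit of the SKA complex that works beside NDC80 on microtubules, fell from 64.8, 48.4 and 38.2 FPKM in WT to 20.3, 23.1 and 22.3 FPKM in Bnc1tr/tr (log2 fold change -1.14, adjusted p = 0.0035). *Ska1* (105.8, 144 and 114 FPKM against 115, 101 and 90.01 FPKM) and *Ska2* were not called. All 5 genes of the Mis12 complex and KNL1, the bridge between the inner and the outer layer, and all 6 of CENP-A loading and the remaining CENP genes were not called as deposited, although *Mis12* and *Itgb3bp* passed as lower after upper-quartile (adjusted p of 0.031 and 0.024) and median-ratio scaling (0.044 and 0.032). *Pmf1* passed as lower after upper-quartile scaling (adjusted p = 0.044), and *Itgb3bp* and *Cenpc1* after quantile normalization (adjusted p of 0.018 and 0.035). *Trip13*, an ATPase that takes apart active MAD2, rose (7.30 ± 1.48 against 2.50 ± 1.17 FPKM, log2 fold change 1.29, adjusted p = 0.0068). *Kntc1*, of the same RZZ complex as *Zw10* and *Zwilch*, fell (2.77 ± 0.589 against 4.44 ± 0.366 FPKM, -0.54, adjusted p = 0.044; 0.056 with the replicate block, 0.059 with trended robust variances, and 0.10 to 0.14 without Bnc1tr/tr replicate 1 or 2 or WT replicate 1 or 2).

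Among the genes of cohesin and its regulators and of shugoshin and PP2A, those called as deposited rose from low levels: *Stag2* (9.06 ± 1.18 against 4.76 ± 0.537 FPKM, log2 fold change 0.80, adjusted p = 0.0073), *Stag1* (0.71, adjusted p = 0.036), *Pds5a* (0.79, adjusted p = 0.031) and the PP2A subunit gene *Ppp2r5a* (0.72, adjusted p = 0.013). Each of the 4 lost its call under quantile normalization (adjusted p of 0.072, 0.32, 0.47 and 0.074). Under each of the 3 scalings *Rad21l* and *Mau2* passed as lower. After upper-quartile, median-ratio and quantile scaling the log2 fold change of *Rad21l* was -0.77, -0.73 and -0.996, and that of *Mau2* -0.81, -0.77 and -1.04. Leaving out 1 library ended the call of *Stag1* (Bnc1tr/tr replicate 1 or 3, WT replicate 2 or 3, adjusted p of 0.077 to 0.12), *Pds5a* (any library other than Bnc1tr/tr replicate 2, 0.053 to 0.11) and *Ppp2r5a* (WT replicate 2, 0.052). For *Ppp2r5a* 28% of the 31-base words also occur in other genes, so its value is uncertain in its source. The shugoshin genes were not called as deposited, though *Sgo2b* passed as lower after upper-quartile scaling (adjusted p = 0.046) and quantile normalization (0.029). The meiotic cohesin gene *Rec8* was listed at 0 in 5 libraries and at 0.32 FPKM in Bnc1tr/tr replicate 1.

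**Figure D5:**
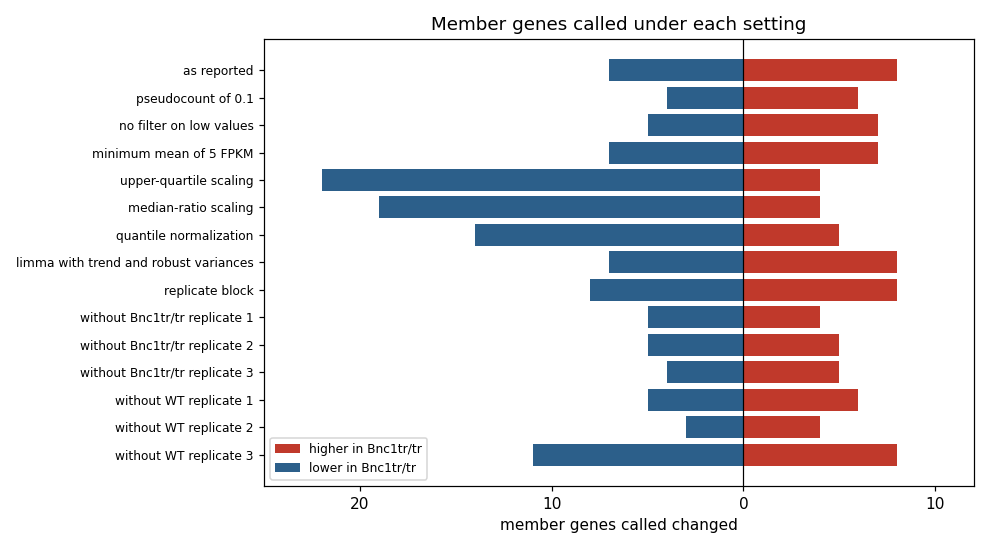
Number of member genes called higher (right) and lower (left) in Bnc1tr/tr as reported and under each of the 14 alternatives. The count of lower calls runs from 3 without WT replicate 2 to 22 after upper-quartile scaling, and that of higher calls from 4 to 8.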

How the data were processed

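Smart-seq2 libraries of GV oocytes, 3 from Bnc1tr/tr and 3 from WT mice by the genotype labels, were analysed. The study speaks of biological replicates run in duplicate, of which 1 table per library was deposited, and of comparisons between littermates; which libraries share a litter was not given in the sources used here. The authors deposited 1 table per library with the FPKM of 17577 genes, to 2 decimals. Their processing notes name HISAT2 2.0.4, Bowtie2 2.2.5, RSEM 1.2.12 and GRCm38.p6 without roles, and annotation release, gene filter and strand setting were not given in the sources used here. FPKM are not counts, and Smart-seq2 carries no molecular identifiers.

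Genes that averaged 1 FPKM or more over the 6 libraries were tested on log2(FPKM + 1) with limma (version 3.58.1, R 4.3.3), a scale that understates changes of low genes, and p-values were adjusted over all 10560 by Benjamini-Hochberg. Thresholds were those of the study. Ratios of 6 gene pairs were compared by exact two-sided permutation. Fragment totals were estimated from steps of low FPKM values over 934 genes and entered no test. Scripts were tested on simulated data. Alternatives were a pseudocount of 0.1, no filter, a minimum mean of 5 FPKM, upper-quartile, median-ratio and quantile scaling, trended robust variances, the replicate number as a block, and leaving out each library. Shared 31-base words and exonic overlaps came from GENCODE transcripts of the same build.

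The members, the list of related genes and the tests were chosen with earlier results of these data known. Values are given for every called member, the 2 most abundant members of each role, every member of a ratio and the called related genes; other members are named by role with their difference, after their values were seen.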

Additional observations from a re-analysis of the deposited data

How the results depend on the processing

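Over the 405 alternative values of the named members, 332 kept their direction and side of the threshold, 53 fell short of it, 12 newly passed it and 8 changed sign. The sign changes were all in uncalled genes: *Nuf2* (-0.25 after upper-quartile and -0.20 after median-ratio scaling, -0.059 to 0.084 with 1 library left out), *Pttg1* (-0.052 after upper-quartile scaling), *Aurka* (-0.33 to 0.16) and *Mad2l1* (-0.25 to 0.047) with 1 library left out; the *Bub1b* to *Cdc20* log2 ratio also ran from -0.019 to 0.22 there. Members called higher numbered 4 after upper-quartile or median-ratio scaling and 5 after quantile normalization, and members called lower 4 at a pseudocount of 0.1 and 22, 19 and 14 under these scalings; leaving out 1 library gave 4 to 8 higher and 3 to 11 lower. Related genes called higher numbered 4 at a minimum mean of 5 FPKM and 3 after upper-quartile scaling or quantile normalization, and those lower 11, 8 and 8 under the scalings, with 3 to 7 higher and 2 to 7 lower when 1 library was left out. Over all genes, a minimum mean of 5 FPKM left 2046 calls, 1413 of them higher, quantile normalization 1637 higher, and lower calls numbered 1794, 1535 and 1877 under the scalings; leaving out 1 library gave 2323 to 3539 calls, 1905 to 2498 higher and 418 to 1041 lower. The higher minimum mean tests fewer genes and a left-out library fewer samples, and other causes were not tested. Under the replicate block 3733 genes were called in all, and 8 members higher and 8 lower, 14 of them among the 15, with *Anapc5* and *Anapc10* gained and *Cdc27* lost; among the called related genes *Kntc1* was lost (adjusted p = 0.056). Same-numbered libraries correlated at 0.278, -0.0344 and 0.124 in their deviations from the group means, and not every library correlated best with its own number, so the number was not taken as a pairing. WT replicate 3 gave no clear depth. The lowest member, *Cenpb*, ran from 0.030 FPKM in WT replicate 1 to 0.88 FPKM in WT replicate 2. By the estimate, 3 fragments per kilobase stood at 0.203 and 0.187 FPKM in these libraries.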
